A study of Mus musculus with 24 samples.

Results

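The 9 genes described here encode the fixed parts of the mouse antibody molecule and the chain that joins its units. They are the heavy chain constant genes Ighm, Ighd, Ighg3, Ighg1, Ighg2b, Ighg2c and Igha, the kappa light chain constant gene Igkc, and Jchain. They were taken by symbol from the deposited table, 9 of its 55025 gene symbols, and each was followed over all 24 libraries. In a B cell, variable segments are joined next to the mu constant gene, and the cell displays IgM and IgD spliced from a single transcript. Class switching replaces mu with a gamma, epsilon or alpha constant gene further along the locus. Antibody-secreting plasma cells transcribe these genes at a very high rate and make the joining chain, which links IgM and IgA into polymers, and constant genes that were never joined to a variable segment can be transcribed too.

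RNA was taken from CD45+CD4+ and from CD45+CD8+ sorted cells, of spleen and of tumor, in TCRα-/- mice, which lack the T cell receptor alpha chain. Every group, vehicle included, carried that deletion and a pancreatic tumor grown at its native site from M8 organoids, and no wild-type or tumor-free group was analysed here. Mice received vehicle or LCL161, a SMAC mimetic that removes cIAP1 and cIAP2, by oral gavage. The LCL161 dose was 75 mg/kg, first given on day 4 and repeated every 3 days to a total of 3 doses, with harvest on day 12. Tissue, sorted population and treatment gave 8 groups of 3 libraries, 1 vehicle and 1 LCL161 group for each gate of each tissue. The sort markers given are CD45 with CD4 or CD8, with no T cell receptor or B cell marker named, and the mice's ages are not stated in the sources used here. The labels do not say that the 3 libraries of a group came from separate mice, so p-values measure the spread between libraries, which may be technical. Values for single libraries are given below in the order of replicates 1, 2 and 3, and that number is only a name.

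The 4 gamma genes lie side by side on the minus strand of chromosome 12 and resemble each other, which bears on how reads are assigned to them. In GENCODE M21 coordinates on GRCm38, Igha is at chr12:113254830-113260236, Ighg2c at chr12:113285325-113288932, Ighg2b at chr12:113302965-113307933, Ighg1 at chr12:113325240-113330523, Ighg3 at chr12:113356224-113361232, Ighd at chr12:113406604-113416324 and Ighm at chr12:113418558-113422730. Igkc lies on the plus strand at chr6:70726435-70726966 and Jchain on the minus strand at chr5:88519809-88527891. The hinge exon, which gives each IgG subclass its flexible joint, differs among the gamma genes in both length and sequence and shows what separates them. It stands in capitals between the last 24 bases of the first constant exon and the first 24 bases of the exon that follows, as spliced in the GENCODE M21 transcripts, 5′ to 3′.
Ighg3 (hinge exon chr12:113360529-113360576): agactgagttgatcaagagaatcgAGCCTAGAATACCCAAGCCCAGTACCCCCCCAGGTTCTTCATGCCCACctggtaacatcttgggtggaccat
Ighg1 (hinge exon chr12:113329844-113329882): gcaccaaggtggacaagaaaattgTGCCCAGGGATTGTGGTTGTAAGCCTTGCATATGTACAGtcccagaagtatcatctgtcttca
Ighg2b (hinge exon chr12:113307261-113307326): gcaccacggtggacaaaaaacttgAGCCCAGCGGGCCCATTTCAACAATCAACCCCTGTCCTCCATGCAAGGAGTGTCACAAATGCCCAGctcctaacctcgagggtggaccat
Ighg2c (hinge exon chr12:113288263-113288325): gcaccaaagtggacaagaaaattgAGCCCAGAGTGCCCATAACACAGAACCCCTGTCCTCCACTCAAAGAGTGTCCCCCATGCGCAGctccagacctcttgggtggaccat

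The hinge exons were 48, 39, 66 and 63 bases long in Ighg3, Ighg1, Ighg2b and Ighg2c. The first 60 bases of the first constant exon show how much they share: capitals mark the 22 positions at which the 4 genes are not all the same.
Ighg3 (chr12:113361173-113361232): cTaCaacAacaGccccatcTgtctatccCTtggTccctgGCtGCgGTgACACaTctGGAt
Ighg1 (chr12:113330464-113330523): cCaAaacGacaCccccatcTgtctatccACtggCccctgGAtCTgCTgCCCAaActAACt
Ighg2b (chr12:113307874-113307933): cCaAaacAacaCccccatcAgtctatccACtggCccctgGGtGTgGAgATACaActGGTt
Ighg2c (chr12:113288873-113288932): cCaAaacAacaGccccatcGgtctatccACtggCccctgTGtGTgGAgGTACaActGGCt

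Over the spliced constant domains the closest pair was Ighg2b and Ighg2c, with 85.8% identical bases, and the other 5 pairs had 75.6% to 77.5%. Of all stretches of 50 bases in its transcripts, Ighg2c shared 5.49% with another heavy chain constant gene, Ighg2b 4.15%, Ighg3 1.58% and Ighg1 0.393%, and Igha, Ighm and Ighd shared none. Read length and the treatment of reads that match several genes are unstated in the sources used here, so the split between Ighg2b and Ighg2c is the least certain of the values below. Igkc overlaps the noncoding gene Gm30211 on the same strand, whose counts came to 0.276% of those of Igkc. The annotated exons of Ighg2c span 1326 bases against 2592 in Ighg1 and 2678 in Ighg2b, so a level per kilobase weighs Ighg2c more heavily.

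Library totals ran from 15455728 to 25145426 counts. Cells of both gates carried the T cell gene Cd3e at 514 to 1569 CPM (counts of a gene per 1000000 counts of its library, with totals scaled by TMM). Trac, the alpha chain constant gene, was still counted, at 63.1 to 1082 CPM in CD4 libraries and 9.29 to 35.4 CPM in CD8 libraries, and the sources used here do not state which of its exons the deletion removes. Genes that define B cells were also present in the spleen: Cd79a, the signalling partner of the B cell receptor, stood between 194 and 573 CPM in the 12 spleen libraries. In the 12 tumor libraries it stood between 2.53 and 87.7 CPM. Libraries stood apart within their groups. Tumor CD4 vehicle replicate 2 did so in B cell genes. Tumor CD4 vehicle replicate 3 and tumor CD8 LCL161 replicate 3 did so in switched antibody genes. Several results that rest on these libraries are given with and without them. In sorted bulk RNA, fewer cells of a type and less RNA per cell cannot be told apart.

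Together the 9 genes took 0.263% to 1.34% of all counts in a spleen library and 0.00612% to 0.0851% in a tumor library, and the 2 ranges did not overlap. In the spleen the kappa chain was the most abundant of them per length, with a mean of 3487 CPM per kilobase of exon in CD4 vehicle libraries and 7853 in CD8 vehicle libraries. Ighm followed at 1516 and 1751 CPM per kilobase. In tumor CD8 vehicle libraries the order was the other way round, with Ighm at 99.1 and Igkc at 56.2 CPM per kilobase.

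**Figure D1:**
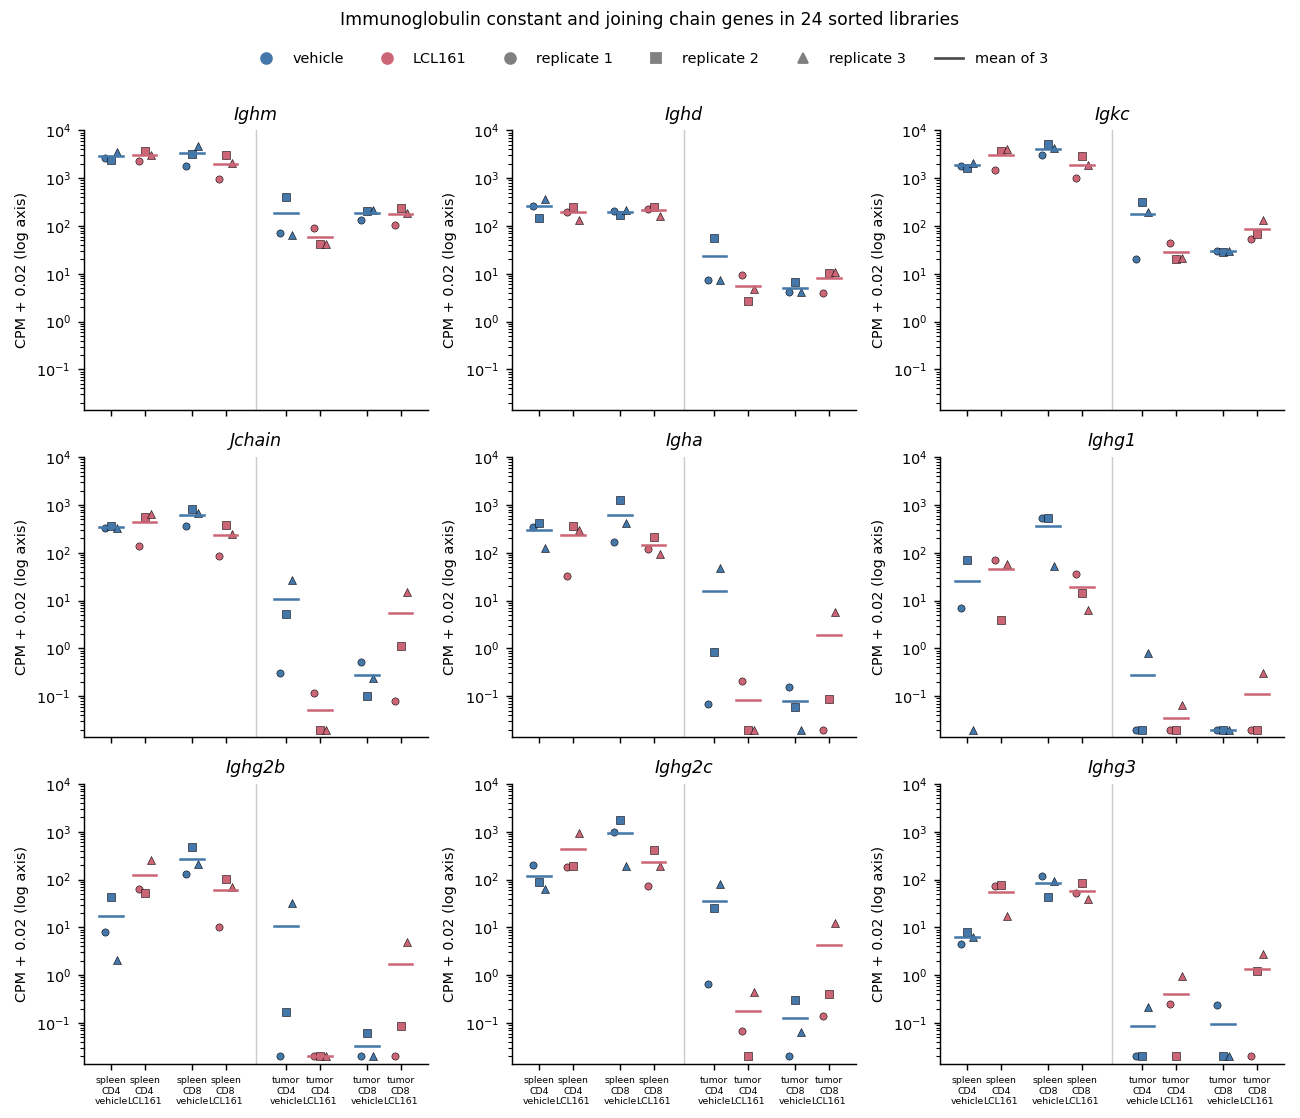
Level of each of the 9 genes in 24 libraries, as CPM plus 0.02 on a log axis so that libraries at 0 can be drawn. Points are single libraries, shaped by replicate number and coloured by treatment, and bars are means of 3. Tumor groups lie below spleen groups for Ighm, Ighd, Igkc and Jchain, while for Igha and the gamma genes single tumor libraries reach toward the spleen.

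Ighm encodes the heavy chain of IgM, the first class a B cell makes. In spleen CD4 vehicle libraries it stood at 2619, 2445 and 3516 CPM and with LCL161 at 2279, 3660.5 and 3096. In spleen CD8 vehicle libraries it stood at 1831, 3276 and 4798 CPM and with LCL161 at 946, 3052 and 2037. The 4 spleen groups overlapped each other, and the lowest spleen library was CD8 LCL161 replicate 1. In the tumor, CD4 vehicle libraries held 72.97, 411 and 65.04 CPM and CD4 LCL161 libraries 92.2, 41.9 and 42.8. CD8 vehicle libraries of the tumor held 131, 208 and 221 CPM and CD8 LCL161 libraries 107, 239 and 184. Every tumor library was below every spleen library, and CD4 vehicle replicate 2 was the highest of the tumor.

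Ighd, whose product is displayed beside IgM on resting B cells, was counted at 262, 144 and 376 CPM in spleen CD4 vehicle libraries, 195, 255 and 136 with LCL161, 211, 167 and 216 in spleen CD8 vehicle libraries and 232, 246 and 163 with LCL161. The 4 groups overlapped. In tumor CD4 libraries it was 7.28, 56.1 and 7.30 CPM with vehicle and 9.39, 2.72 and 4.75 with LCL161, and in tumor CD8 libraries 4.11, 6.80 and 4.06 and 3.88, 10.3 and 10.8. Replicate 2 of tumor CD4 vehicle, the library highest for Ighm, was again the highest of the tumor.

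Igkc encodes the constant part of the kappa light chain, the partner of most mouse heavy chains. Spleen CD4 libraries held 1844, 1648 and 2075 CPM with vehicle and 1478, 3686 and 4051 with LCL161. Spleen CD8 libraries held 3037, 5173 and 4324 CPM with vehicle and 1004, 2876 and 1885 with LCL161, and these groups did not overlap. In the tumor, CD4 libraries held 20.4, 320.2 and 192 CPM with vehicle, replicate 1 far below the other two, and 44.4, 20.1 and 21.8 with LCL161. The 3 tumor CD8 vehicle libraries were nearly equal at 30.6, 29.02 and 30.05 CPM and all lay below the CD8 LCL161 libraries at 52.6, 66.7 and 136.

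Jchain, the joining chain, was counted in spleen CD4 libraries at 336, 367 and 337 CPM with vehicle and 140.2, 555 and 649 with LCL161. In spleen CD8 libraries it was 366, 828 and 669.6 CPM with vehicle and 86.4, 385 and 246 with LCL161. Most tumor libraries held little of it, with 0.289, 5.18 and 26.6 CPM in CD4 vehicle, 0.0939, 0 and 0 in CD4 LCL161, 0.491, 0.0814 and 0.218 in CD8 vehicle and 0.0597, 1.11 and 15.05 in CD8 LCL161. A count of 0 allows up to 3 counts in a library, or 0.120 to 0.196 CPM across the tumor libraries, from counting error alone. Replicate 3 of tumor CD4 vehicle and replicate 3 of tumor CD8 LCL161 were the 2 tumor libraries with over 10 CPM.

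Igha, the heavy chain of IgA, was high and low in many of the same libraries as Jchain. It stood at 351, 411 and 124 CPM in spleen CD4 vehicle, 32.1, 367 and 305 in spleen CD4 LCL161, 170.4, 1249 and 428 in spleen CD8 vehicle and 123, 212 and 96.4 in spleen CD8 LCL161. In the tumor it was 0.0482, 0.813 and 46.9 CPM in CD4 vehicle, 0.188, 0 and 0 in CD4 LCL161, 0.134, 0.0407 and 0 in CD8 vehicle and 0, 0.0653 and 5.61 in CD8 LCL161. The same replicate 3 libraries that held Jchain held Igha. Over the 12 spleen libraries, Pearson's r of the log2 levels of Igha and Jchain was 0.784, and that of Igkc and Jchain was 0.928. These are descriptions, and the points share the depth and the composition of their libraries.

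The gamma genes encode the IgG subclasses and are reached by switching. Ighg2c was the most abundant of them per length in all 12 spleen libraries and by count in 11, spleen CD8 vehicle replicate 3 having more of Ighg2b. It stood at 207, 90.8 and 62.3 CPM in spleen CD4 vehicle, 182, 191 and 949.7 in CD4 LCL161, 977, 1733 and 188 in CD8 vehicle and 74.2, 418 and 192 in CD8 LCL161. Tumor libraries held 0.627, 25.95 and 80.9 CPM in CD4 vehicle, 0.0470, 0 and 0.419 in CD4 LCL161, 0, 0.285 and 0.0437 in CD8 vehicle and 0.119, 0.392 and 12.1 in CD8 LCL161. The highest tumor library, CD4 vehicle replicate 3, lay within the range of spleen CD4 vehicle.

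Ighg2b, the neighbour that shares most sequence with Ighg2c, stood at 8.15, 42.5 and 2.06 CPM in spleen CD4 vehicle, 64.5, 52.3 and 259.6 in CD4 LCL161, 133, 471 and 212 in CD8 vehicle and 10.4, 104 and 69.2 in CD8 LCL161. In the tumor it was above 1 CPM in 2 libraries, at 31.8 CPM in CD4 vehicle replicate 3 and 4.94 CPM in CD8 LCL161 replicate 3. Ighg1 varied widely within groups. Spleen CD4 vehicle libraries held 7.09, 71.05 and 0 CPM, CD4 LCL161 71.6, 3.93 and 58.9, CD8 vehicle 528, 531 and 53.4 and CD8 LCL161 36.9, 14.7 and 6.43. It was at 0 in 9 of the 12 tumor libraries and at most 0.762 CPM in the others. Ighg3 in the spleen stood at 4.56, 8.08 and 6.23 CPM in CD4 vehicle, 72.6, 76.8 and 17.5 in CD4 LCL161, 119, 44.2 and 93.2 in CD8 vehicle and 52.4, 84.1 and 40.03 in CD8 LCL161. In the tumor Ighg3 reached at most 2.81 CPM.

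The first comparison set tumor against spleen in vehicle libraries, with edgeR's quasi-likelihood test, p-values adjusted over all 20203 genes tested and a threshold of 0.05. All 9 genes passed the filter on low counts, Ighg1 and Ighg2b through their spleen libraries alone, so those 2 could hardly have been other than lower in the tumor. In the CD8 gate all 9 were lower in the tumor, where 14.9% of all genes passed in either direction and 6.89% were lower. The median log2 fold change of the 9, those 2 included, was -11.20, also with Ighg1 at its bound, against 0.03 over all genes. The groups did not overlap for any of the 9, as for 47.8% of all genes.

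The size of the drop in the CD8 gate differed widely between the genes. Mean Ighm was 17.7-fold lower, with a log2 fold change of -4.14 ± 0.66 (SE, adjusted p = 0.000363, edgeR). Ighd was 39.7-fold lower (-5.31 ± 0.74, adjusted p = 0.000137, edgeR) and Igkc 139.8-fold lower (-7.13 ± 0.81, adjusted p = 2.62e-05, edgeR). Jchain fell furthest among the 4 genes counted in all 6 libraries, with a mean 2357-fold lower (-11.20 ± 1.65, adjusted p = 0.000219, edgeR). The heavy chain genes reached by switching were nearly absent: summed over the 3 tumor CD8 vehicle libraries there were 0 counts of Ighg1, 1 of Ighg2b, 8 of Ighg2c, 5 of Ighg3 and 4 of Igha, against 13118 of Ighm. Ighg1 was at least 2874-fold lower, taking 3 counts per library as the limit. These 9 calls held with any 1 of the 6 libraries left out, Ighg1 and Ighg2b among them, which passed the filter through spleen libraries alone. The log2 fold change was then -4.43 to -3.77 for Ighm, -7.31 to -6.94 for Igkc and -11.98 to -10.75 for Jchain. For Ighg3 the value was -13.79 without tumor CD8 vehicle replicate 1, against -10.10 ± 1.22 with all libraries.

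In the CD4 gate 7 of the 9 were lower in the tumor, where 16.5% of all genes passed and 6.85% were lower. The 7 include Ighg1, which passed the filter through its spleen libraries alone. The median log2 fold change of the 9 was -3.97, against 0.00 over all genes, and no overlap between groups was seen for 6 of the 9, as for 31.0% of all genes. Mean Ighm was 15.6-fold lower (-3.97 ± 0.65, adjusted p = 0.000505, edgeR), Ighd 11.05-fold (-3.47 ± 0.67, adjusted p = 0.00178, edgeR) and Igkc 10.5-fold (-3.39 ± 0.68, adjusted p = 0.00242, edgeR). Jchain was 32.4-fold lower, Ighg3 94.04-fold, Ighg1 102-fold and Igha 18.5-fold (adjusted p = 0.00744, 0.00188, 0.0218 and 0.0479, edgeR). Ighg2b and Ighg2c did not pass, at -0.71 ± 1.43 and -1.74 ± 1.21 (adjusted p = 0.767 and 0.336, edgeR).

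These CD4 values leaned on 2 tumor libraries. Without tumor CD4 vehicle replicate 3, Ighg2b passed at -7.77, and the values of Igha, Ighg1, Ighg3 and Jchain moved to -9.43, -12.07, -10.02 and -6.99. Without tumor CD4 vehicle replicate 2, which held the most Ighm and Ighd, those genes moved to -5.37 and -5.16 and Igkc to -4.13. Without spleen CD4 vehicle replicate 2, Ighg1 no longer passed, at -3.63, and Ighg2b turned to 1.07. Igha passed in 1 of the 6 fits that left out a library and Ighg1 in 3. When only the 6 libraries compared were fitted, 1 of the 9 passed.

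Genes of B cells moved with the antibody genes. Of 20 B cell identity genes, all tested, 19 were lower in the tumor in the CD4 gate and 14 in the CD8 gate, with medians of -3.45 and -4.62. Their summed level was 2127 to 5098 CPM in spleen CD4 vehicle and 362 to 1032 in tumor CD4 vehicle libraries, and 1896 to 2225 against 469 to 588 in the CD8 gate. Bank1, a B cell signalling adaptor, fell by 2.97 on the log2 scale in the CD4 gate and by 4.07 in the CD8 gate. Cr2, the complement receptor of mature B cells, fell by 5.90 and 8.95. No B cell gene was at 0 in a whole group, while Tnfrsf17, a receptor of plasma cells, was at 0 in 11 of the 12 tumor libraries. Its spleen levels were also low, at 0.0914 to 1.64 CPM. Of 20 plasma cell genes 9 were lower and 3 higher in the CD4 gate and 8 lower and 1 higher in the CD8 gate, and Mzb1, a chaperone of antibody assembly, fell by 2.76 and 2.82 on the log2 scale. Other antibody constant and light chain genes, 8 tested of 12, were lower for 6 in each gate, among them the lambda constant genes Iglc1 and Iglc2. With LCL161 the step from spleen to tumor passed for 9 of the 9 in the CD4 gate, where 21.4% of all genes did. In the CD8 gate it passed for 8, where 8.81% of all genes did, with Ighg2b at -5.14 there (adjusted p = 0.0776, edgeR). Ighg1 and Ighg2b, which passed the filter through spleen libraries alone, are among the 9 here too and could hardly have been higher in the tumor. How much of the difference in antibody genes goes with the number of B cells was not tested.

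Receptors for antibody, 11 tested of 12, moved in both directions, 5 higher and 2 lower in the CD4 gate and 5 higher and 3 lower in the CD8 gate. Fcgr1 and Fcgr3, Fc receptors of myeloid cells, rose in the tumor by 6.63 and 4.88 on the log2 scale in the CD4 gate and by 4.89 and 4.26 in the CD8 gate. Fcer2a and Fcmr, receptors that B cells carry for IgE and IgM, stood at -3.70 and -3.60 in the CD4 gate and -5.92 and -5.72 in the CD8 gate, all past the threshold. The list summed to 528, 518 and 532 CPM in spleen and 431, 558 and 532 CPM in tumor CD8 vehicle libraries, which overlapped. Conventional dendritic cell genes were lower for 9 of 12 in the CD8 gate, with sums of 3597, 3965 and 3537 CPM in the spleen and 422, 568 and 496 CPM in the tumor, and in the CD4 gate 3 were higher and 1 lower. Plasmacytoid dendritic cell genes were lower for 7 of 14 in the CD4 gate, while in the CD8 gate 2 were higher and 1 lower and the sum was 2353, 2344 and 2176 CPM in the spleen and 1042, 1831 and 1446 CPM in the tumor. Macrophage and monocyte genes were higher in the tumor for 9 of 12 in each gate, and summed to 3756, 6587 and 3133 CPM in tumor CD4 vehicle libraries against 989, 525 and 1052 CPM in the spleen. Genes of tumor epithelium and acinar cells were higher for 9 of 12 in the CD4 gate and 10 of 12 in the CD8 gate. The part of these cell types in the difference was not tested.

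**Figure D2:**
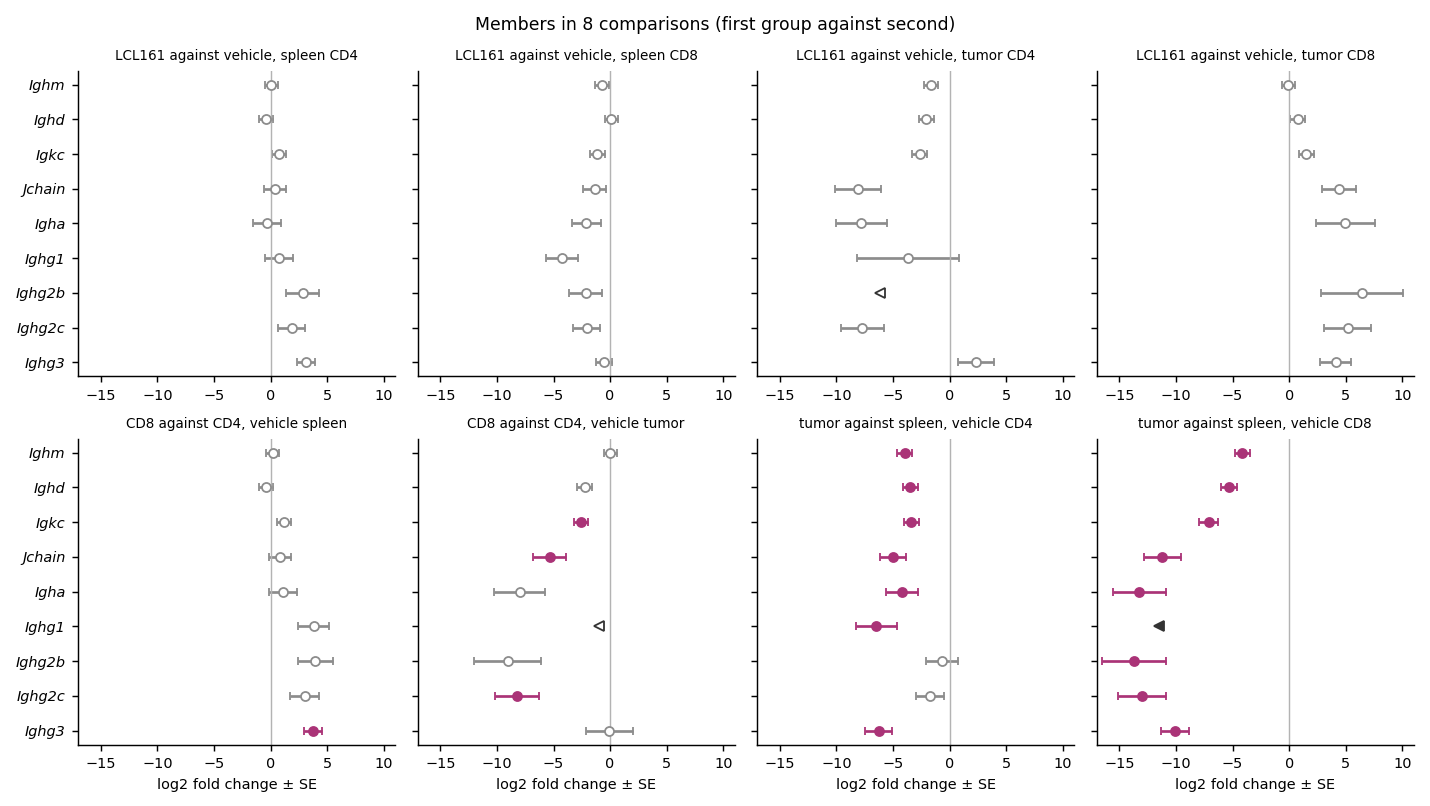
Log2 fold change with its SE of each gene in 8 comparisons, from edgeR's quasi-likelihood test on 3 libraries a group. Filled symbols are past the threshold, triangles are lower bounds where a group is at 0, and Ighg1 is not drawn in tumor CD8, where both groups are at or near the limit of a count of 0. All 9 symbols are filled on the lower side for tumor against spleen in CD8, where Ighg1 and Ighg2b passed the filter through spleen libraries alone. None is filled in the 4 comparisons of LCL161 with vehicle.

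The antibody RNA left in the tumor CD8 gate had other proportions than that of the spleen. The ratio of Ighm to Igkc, per kilobase, was 1.21, 2.02 and 2.08 in tumor CD8 vehicle libraries, above all 12 spleen libraries at 0.170 to 0.478. With LCL161 it was 0.574, 1.01 and 0.381, and replicate 3 then lay within the spleen range. In tumor CD4 vehicle libraries it was 1.01, 0.362 and 0.0955, which spans the spleen range on both sides.

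Variable segments, which carry the antigen-binding part, were scarce beside those Ighm counts. For each 100 counts of the 7 heavy chain constant genes there were 13.1 to 20.4 counts of heavy chain variable segments in spleen libraries. In tumor CD8 vehicle libraries there were 1.55, 1.68 and 0.730, and with LCL161 2.80, 2.58 and 13.4. Only the library with the switched genes, LCL161 replicate 3, reached the spleen range. Tumor CD4 vehicle libraries held 5.21, 10.8 and 21.1. Joining segments, which lie just upstream of Ighm, were closer to the spleen: they stood at 1.35, 1.63 and 1.41 per 100 constant counts in tumor CD8 vehicle libraries and at 1.56 to 2.29 in the spleen. Kappa variable segments behaved like the heavy ones, with 16.4, 23.2 and 18.8 counts per 100 of Igkc in tumor CD8 vehicle libraries against 45.8 to 55.6 in the spleen.

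Beside B cell genes the Ighm counts gave different ratios for different genes. Ighm was 35.8, 53.9 and 87.3 times the level of Cd79a in tumor CD8 vehicle libraries, against 4.07 to 17.9 times in the spleen and 4.69 to 16.8 times in tumor CD4 libraries. With LCL161 the ratio in the tumor CD8 gate went down to 12.8, within the spleen range. Against the summed level of the 20 B cell identity genes the order turned. That list shares Ly6d and Spib with the plasmacytoid dendritic cell list, and the part of other cell types in its sum was not tested. Ighm was 0.279, 0.354 and 0.394 times that sum in tumor CD8 vehicle libraries, below all 12 spleen libraries at 0.431 to 2.16. The tumor CD8 LCL161 libraries also lay below the spleen, down to 0.191. Ighd, per kilobase, was 3.11, 3.24 and 1.82% of Ighm in tumor CD8 vehicle libraries, below all 12 spleen libraries at 4.36% to 24.3%. With LCL161 this percentage reached 5.85% in the tumor CD8 gate, within the spleen range. Plasmacytoid dendritic cell genes, 14 in the list, summed to 1042, 1831 and 1446 CPM in tumor CD8 vehicle and 987, 2006 and 577 CPM in tumor CD4 vehicle libraries, and none of their defining genes was absent, with Siglech at 107, 262 and 182 and 106, 240.5 and 47.7 CPM. Their part in the Ighm counts was not tested. These ratios were chosen after the values were seen and carry no test.

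**Figure D3:**
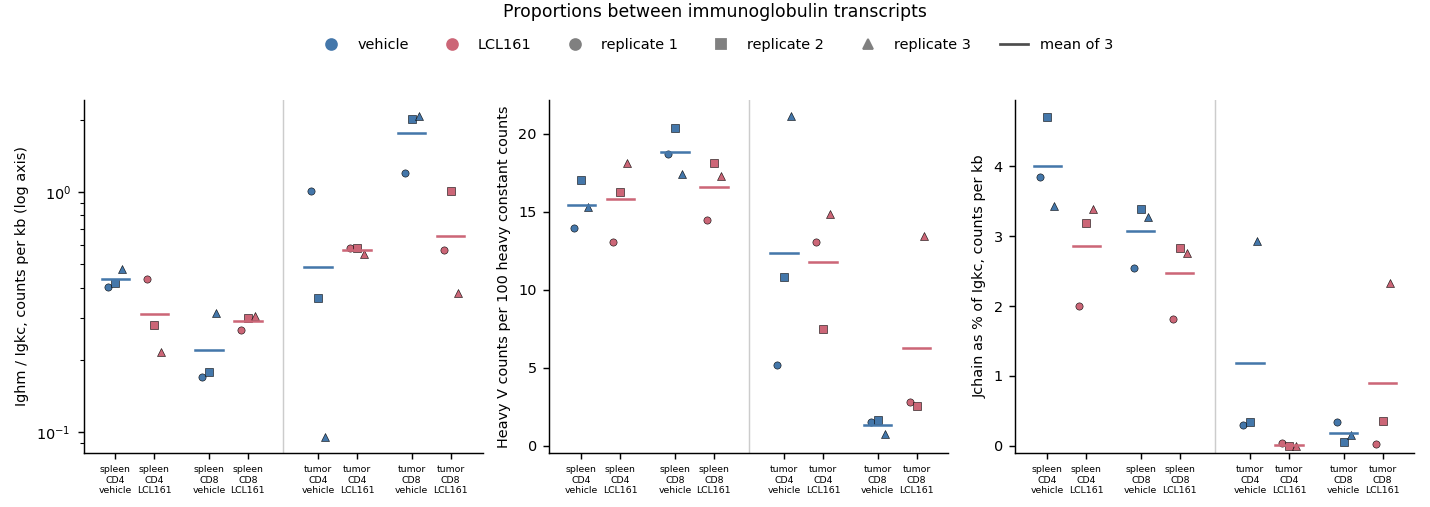
Ratio of Ighm to Igkc per kilobase on a log axis, heavy chain variable counts per 100 heavy chain constant counts, and Jchain as a percentage of Igkc per kilobase, for each library with the mean of 3 as a bar. Tumor CD8 vehicle libraries lie above the spleen in the first panel and below it in the other panels, and tumor CD8 LCL161 replicate 3 lies with or near the spleen in all panels.

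Heavy chain isotypes were compared as shares of the 7 heavy chain constant genes per kilobase. IgM made up 76.2, 79.00 and 86.4% in spleen CD4 vehicle libraries and 44.5, 43.4 and 82.1% in spleen CD8 vehicle libraries, where replicates 1 and 2 stood apart from replicate 3. The 4 gamma genes together made up 47.5, 42.6 and 9.005% in those CD8 libraries and 8.99, 7.001 and 2.33% in the CD4 libraries. With LCL161 the gamma share was 14.1, 8.12 and 31.6% in spleen CD4 and 12.4, 17.7 and 13.6% in spleen CD8 libraries.

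In the tumor CD8 gate IgM made up 96.8, 96.7 and 98.2% with vehicle and 96.4, 95.3 and 83.02% with LCL161. The 3 tumor CD4 vehicle libraries were unlike each other. Replicate 1 held little Igkc, Jchain and switched antibody RNA. Its Ighm and Ighd, at 72.97 and 7.28 CPM, were near those of replicate 3, at 65.04 and 7.30 CPM. Replicate 2 held unswitched antibody RNA with B cell genes, with Ighm at 411 CPM, Cd79a at 87.7 CPM and a gamma share of 7.34%. Replicate 3 held switched antibody RNA, with a gamma share of 56.7%, Igha at 13.6% and Ighm at 26.7%, while Cd79a stood at 11.5 CPM. Counting without length left the same picture, with Ighm at 90.2, 83.2 and 27.9% in the 3 libraries.

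**Figure D4:**
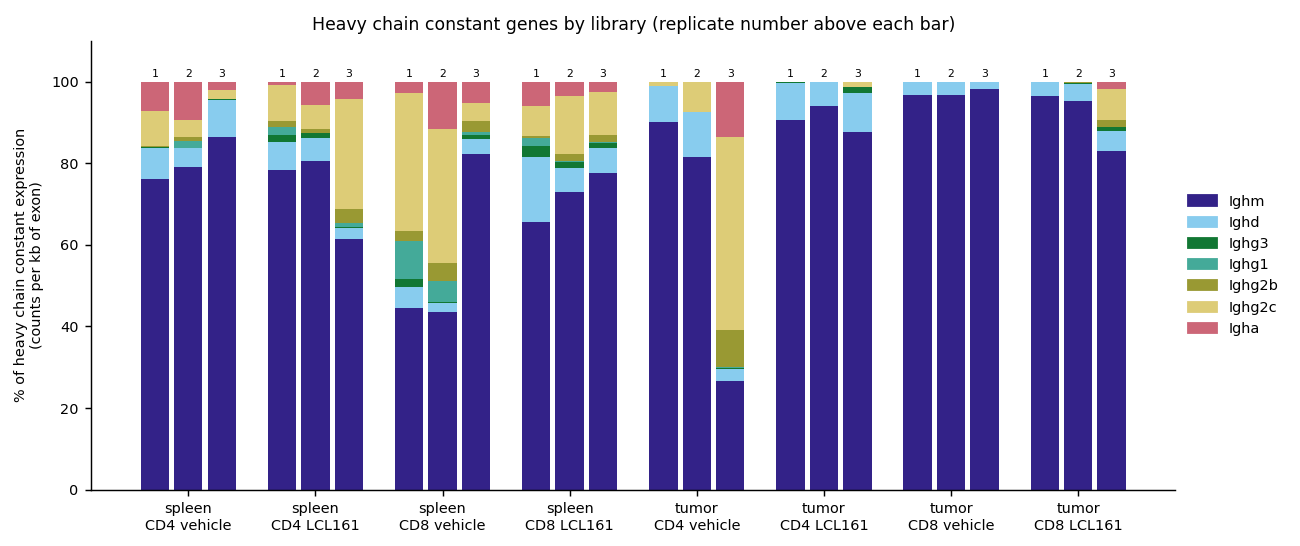
Share of each heavy chain constant gene, from counts per kilobase, in each of the 24 libraries, with 1 bar a library. IgM fills most of each bar except in spleen CD8 vehicle replicates 1 and 2 and in tumor CD4 vehicle replicate 3, where Ighg2c takes the largest gamma share.

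The second comparison set the CD8 gate against the CD4 gate in vehicle libraries. In the spleen 1 of the 9 genes passed, where 11.5% of all genes did and 5.36% were higher. Ighg3 was 13.6-fold higher in the CD8 gate (3.76 ± 0.80, adjusted p = 0.00458, edgeR), with groups that did not overlap. It passed with each of the 6 libraries left out in turn. The other gamma genes were higher by the mean without passing: Ighg1 at 3.83 ± 1.37, Ighg2b at 3.95 ± 1.56 and Ighg2c at 3.01 ± 1.26 (adjusted p = 0.0801, 0.114 and 0.133, edgeR). Ighg1 passed at 6.69 without spleen CD4 vehicle replicate 2. Ighm stood at 0.21 ± 0.58 and Ighd at -0.39 ± 0.60 (adjusted p = 0.881 and 0.758, edgeR). Groups did not overlap for 3 of the 9, Ighg3, Ighg2b and Igkc, against 36.4% of all genes. Of the 9 genes 8 were above 0, with a median of 1.17, while all 20 B cell identity genes were below 0, with a median of -0.68 and none past the threshold. Conventional dendritic cell genes were higher in the CD8 gate for 9 of 12, with sums of 3537 to 3965 CPM against 154 to 440 CPM, and their part in these differences was not tested. In LCL161 libraries 0 of the 9 passed (0 also at an unadjusted p of 0.05, edgeR), where 17.4% of all genes did, and Ighg3 stood at 0.08. The difference between those 2 values of Ighg3, tested with the LCL161 effects below, did not pass (adjusted p = 0.126, edgeR).

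In the tumor 3 of the 9 were lower in the CD8 gate, where 4.12% of all genes passed and 2.42% were lower. They were Ighg2c (-8.23 ± 1.95, adjusted p = 0.0213, edgeR), Igkc, 5.94-fold lower (-2.57 ± 0.66, adjusted p = 0.0328, edgeR), and Jchain (-5.35 ± 1.48, adjusted p = 0.0479, edgeR). Groups did not overlap for Ighg2c and Ighd, 2 of the 9 against 25.8% of all genes. Means of Ighm were nearly equal, at 187 ± 48.8 CPM in the CD8 gate and 183 ± 198 CPM (SD, n = 3) in the CD4 gate, with a log2 fold change of 0.03 ± 0.58 (adjusted p = 0.99, edgeR). The 3 calls did not last: 0 of the 9 passed without any 1 of the tumor CD8 vehicle replicates, 1 without tumor CD4 vehicle replicate 3 and 5 without tumor CD4 vehicle replicate 1. Fitted on the 6 libraries alone, or with limma voom, 0 passed, and with DESeq2 6 did. B cell identity genes were lower in the CD8 gate for 5 of 20, among them Cd79a by 3.36 on the log2 scale. These values include tumor CD4 vehicle replicate 2, the tumor library highest in Cd79a. In LCL161 libraries 0 of the 9 passed, where 2.93% of all genes did. At an unadjusted p of 0.05 (edgeR) 4 of the 9 did, and the share of all genes at that level is not reported here.

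The third comparison set LCL161 against vehicle in each tissue and gate. None of the 9 genes passed in any of the 4 groups by edgeR's quasi-likelihood test, where 0.436%, 8.33%, 0.307% and 0.247% of all genes passed in the CD4 and CD8 gates of the spleen and the CD4 and CD8 gates of the tumor. At an unadjusted p of 0.05 the counts were 1, 1, 7 and 4 of 9 (edgeR), and the shares of all genes at that level are not reported here. DESeq2 called 0, 0, 6 and 2 of the 9 and limma voom 0, 5, 0 and 0. Over all genes DESeq2 called 737 in tumor CD4 and limma voom 7148 in spleen CD8. The DESeq2 count over all genes in tumor CD8 is not reported here.

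In spleen CD4 libraries Ighg3 stood apart from vehicle without passing. Its 3 LCL161 libraries, at 72.6, 76.8 and 17.5 CPM, lay above the 3 vehicle libraries, at 4.56, 8.08 and 6.23 CPM, with a log2 fold change of 3.14 ± 0.78 (adjusted p = 0.0788, edgeR). It passed without LCL161 replicate 3, at 3.57 (adjusted p = 0.031, edgeR). Ighg2b was the other gene whose groups did not overlap, 2 of 9 against 14.6% of all genes, at 2.84 ± 1.48 (adjusted p = 0.352, edgeR). Ighm stood at 0.07 ± 0.58 and Igkc at 0.73 ± 0.62 (adjusted p = 0.968 and 0.569, edgeR). None of the 13 class switch and germinal center genes passed there, and 11 were above 0. B cell identity genes were below 0 for 18 of 20, none past the threshold. Ighe, the IgE gene, was at 0, 6.69 and 0 and 0.320, 0.123 and 0.350 CPM. Neutrophil genes, all 12 above 0 and none past the threshold, summed to 67.4, 72.5 and 676 CPM with vehicle and 258, 1033 and 2617 with LCL161, and their part was not tested.

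In spleen CD8 libraries 8 of the 9 genes were below 0, with a median of -1.38 against 0.07 over all genes. The groups did not overlap for Ighg1, Ighg2b and Igkc, 3 of 9 against 38.9% of all genes. Ighg1 was the closest to the threshold at -4.26 ± 1.39 (adjusted p = 0.0683, edgeR), with LCL161 libraries at 36.9, 14.7 and 6.43 CPM and vehicle libraries at 528, 531 and 53.4 CPM. Igkc stood at -1.12 ± 0.63 and Ighm at -0.71 ± 0.58 (adjusted p = 0.278 and 0.465, edgeR). The B cell list gave no such shift there, with 8 genes above 0, 12 below and sums of 2173, 1896 and 2225 CPM in vehicle libraries against 2193, 2228 and 1649 with LCL161. Conventional dendritic cell genes summed to 3597, 3965 and 3537 CPM with vehicle and 535, 1959.8 and 1092 with LCL161, with 3 of 12 lower. Plasmacytoid dendritic cell genes summed to 2353, 2344 and 2176 CPM in vehicle libraries against 1221, 1471 and 1121 with LCL161, none of 14 past the threshold. T cell genes summed to 5001, 4247 and 4893 CPM against 5949.6, 5890.2 and 7391, with 2 of 14 higher. None of these 3 sums overlapped between the groups, and their part was not tested. Of the class switch list, Bcl6, a regulator of germinal center cells and follicular helper T cells, fell by 1.60 on the log2 scale (adjusted p = 0.00482, edgeR) and Fas, a death receptor, rose by 1.24 (adjusted p = 0.035, edgeR). Of the genes that direct switching, Ifng rose by 2.63 and Tgfb1 fell by 1.06 (adjusted p = 0.0231 and 0.00142, edgeR).

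In tumor CD4 libraries 8 of the 9 were below 0 with LCL161. The median was -3.68, also with Ighg2b at its bound, against -0.01 over all genes. It was the value of Ighg1 itself (-3.68 ± 4.48), from 18.5 counts in vehicle replicate 3 and 1 in LCL161 replicate 3. The lowest adjusted p was 0.078 for Ighg2c (-7.73 ± 1.90, edgeR), followed by Jchain (-8.12 ± 2.02) and Igkc (-2.62 ± 0.66), both at 0.081. Without vehicle replicate 3 Ighg2c stood at -6.29 (adjusted p = 0.0887, edgeR), Jchain at -6.13 (adjusted p = 0.14, edgeR) and Igha at -2.58, against -7.81 ± 2.26 with all libraries. Groups did not overlap for Ighg2c and Jchain, 2 of 9 against 15.3% of all genes. Ighg2b was at 0 in the 3 LCL161 libraries and at least 71.4-fold lower by the mean, which rests on vehicle replicate 3. Igkc passed without vehicle replicate 1, at -3.16 (adjusted p = 0.00738, edgeR), and stood at -1.88 without vehicle replicate 2 (adjusted p = 0.347, edgeR). Without vehicle replicate 2, Ighm stood at -0.23 and Ighd at -0.37, against -1.63 ± 0.60 and -2.06 ± 0.65 with all libraries. Without vehicle replicate 3 the value of Ighg1 turned to 1.89. B cell identity genes were below 0 for 18 of 20 with none past the threshold, and summed to 442, 1032 and 362 CPM with vehicle and 465, 404 and 349 with LCL161. Macrophage and monocyte genes, all 12 below 0 and 1 past the threshold, summed to 3756, 6587 and 3133 and 1521, 1183 and 2016 CPM. Their part was not tested.

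In tumor CD8 libraries 8 of the 9 were above 0, with a median of 4.14 against 0.00 over all genes. That median was the value of Ighg1 itself (4.14 ± 6.94), from 4.5 counts in LCL161 replicate 3 and 0 in every other library compared. Igkc was the gene whose groups did not overlap, 1 of 9 against 23.6% of all genes, at 1.51 ± 0.64 (adjusted p = 0.395, edgeR). Ighm stood at -0.08 ± 0.58 (adjusted p = 0.991, edgeR). The large values of Jchain (4.37 ± 1.51), Ighg2c (5.15 ± 2.05) and Igha (4.95 ± 2.62) rested on LCL161 replicate 3, and without that library they stood at 1.12, 1.10 and -0.77. Ighg3, with the smallest adjusted p at 0.255 (4.11 ± 1.36, edgeR), stood at 2.89 without it. Cd79a was at 3.34, 12.99 and 14.4 CPM in the LCL161 libraries and 3.66, 3.87 and 2.53 CPM with vehicle. Macrophage and monocyte genes summed to 1775, 2180 and 1799 CPM in the LCL161 libraries and 3620, 3503 and 3966 with vehicle, without overlap. Their part was not tested.

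Whether the LCL161 effect differed between gates or tissues was tested directly. None of the 9 passed in the 4 such tests (edgeR, with 5, 6, 5 and 6 of 9 at an unadjusted p of 0.05 for CD8 minus CD4 in the spleen, CD8 minus CD4 in the tumor, tumor minus spleen in CD4 and tumor minus spleen in CD8). Over all genes 0.247%, 0.0%, 0.0099% and 0.0247% passed after adjustment (edgeR). The shares of all genes at an unadjusted p of 0.05 are not reported here, so the unadjusted counts have no background to be read against. DESeq2 called 0, 5, 4 and 0 of the 9 and limma voom 2, 0, 0 and 0. Over all genes DESeq2 called 41 for CD8 minus CD4 in the tumor and 150 for tumor minus spleen in CD4. Limma voom called 564 over all genes for CD8 minus CD4 in the spleen. The smallest adjusted p of edgeR was 0.126, for Ighg3 in the spleen, where the difference was -3.68 ± 1.04.

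**Figure D5:**
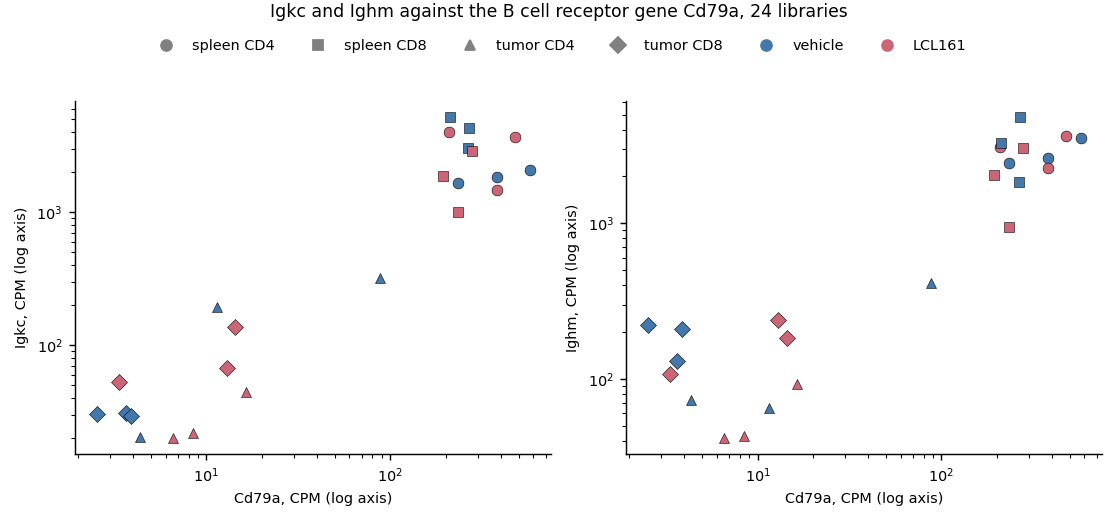
Igkc (left) and Ighm (right) against Cd79a in 24 libraries, both axes in CPM on a log scale, with shapes for tissue and gate and colours for treatment. Spleen libraries cluster at the upper right, and tumor CD8 libraries, diamonds, lie above tumor CD4 libraries of like Cd79a for Ighm.

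The genes most like Igkc over the 24 libraries, by Pearson's r of log2 CPM among 11945 genes, were Cd79a (r = 0.950), Fcer2a (0.948), Bank1, Pou2af1 and Fcmr, which are B cell genes. Those most like Ighm were Mzb1 (r = 0.973), Cd79b, H2-DMb2, Siglecg and H2-Ob. Those most like Jchain were St6gal1 (r = 0.925), a sialyltransferase, Car1, Cd79a, Fcer2a and Fcmr. With each group mean removed, r was 0.687 for Igkc with Cd79a, 0.786 for Ighm with Mzb1 and 0.342 for Jchain with St6gal1. The 24 points share the step from spleen to tumor and the depth and scaling of their libraries.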

How the data were processed

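Gene-level expected counts, as the authors deposited them in one table, covered 24 libraries, and 52.7% of non-zero values were not whole. Per the submitters' processing notes, reads were trimmed with cutadapt and aligned with STAR 2.7.3a to GRCm38, while the counting tool, the annotation, the strand setting and the trimming settings are unstated in the sources used here. Counts were rounded to whole numbers, genes with low counts were removed (edgeR's filterByExpr, minimum count 10, 20203 of 55025 kept), libraries were scaled by TMM, and CPM used the scaled totals. One quasi-likelihood model with robust dispersion was fitted over all 8 groups (edgeR 4.0.16, 16 residual degrees of freedom) and p-values were adjusted by the Benjamini-Hochberg method over all genes within each of 12 contrasts, with a threshold of 0.05. The procedure was run on simulated data for the comparisons of LCL161 with vehicle only. It recovered 34% to 39% of 2-fold changes and 77% to 86% of 4-fold changes, so most 2-fold changes were missed. Between 5 and 11 genes that had not been changed were called in each comparison. What share of changes in the antibody genes themselves would be recovered was not tested. Fold changes of means are given beside fitted log2 values, and a fold against a group at 0 counts used a limit of 3 counts per library, which covers counting error only.

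Settings varied one at a time: RLE scaling, library totals alone, totals without antibody genes, no filter, at least 5 CPM in 3 libraries, only the libraries compared, LCL161 libraries for the comparisons of tissue and gate, a replicate block, each library left out, DESeq2 1.42.0 and limma voom 3.58.1. Replicate numbers were not used as pairs in the main fits, and the replicate block was fitted for all 12 contrasts as one of these settings. A further block fit was added after seeing the data, for tumor against spleen in CD8 LCL161 libraries. All 3 same-numbered pairs correlated above 0.1 there (0.112, 0.125 and 0.165). The genes and the 12 comparison lists (166 entries, with some genes shared between lists) were chosen with earlier results of these data known. All 9 genes are named. From each list up to 4 genes a contrast were picked, those past the threshold with the smallest adjusted p. The 5 genes most like Igkc, Ighm and Jchain by Pearson's r, among genes with a mean of at least 1 CPM, are named too. So are cell type markers. Ighe, Siglech, Tnfrsf17 and the ratios were named after their values were seen, and some list genes are not reported here. Sequences and positions come from GENCODE M21 on GRCm38, which held 53522 of the symbols.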

Additional observations from a re-analysis of the deposited data

How the results depend on the processing

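Of the 9 genes, the number past the threshold for LCL161 in spleen CD8 was 1 with a filter of 5 CPM in 3 libraries, 1 with only the libraries compared and 5 with limma voom. DESeq2 called 6 in tumor CD4, 2 in tumor CD8, 5 for the difference of effects in the tumor and 4 for that in CD4, and voom 2 for that in the spleen. CD8 against CD4 in the spleen gave 0 in LCL161 libraries, 2 with only the libraries compared and 4 with voom. In the tumor it gave 1 without a filter, 5 with the 5 CPM filter, 0 in LCL161 libraries, 0 with only the libraries compared, 0 with voom and 6 with DESeq2. Tumor against spleen in CD4 gave 1 with only the libraries compared and 4 with voom, and in CD8 every setting gave at least 7 of 9. With each library left out the counts ran from 0 to 1 for LCL161 in spleen CD4, tumor CD4 and the tumor difference, 1 to 2 for CD8 against CD4 in the spleen, 0 to 5 in the tumor, and 5 to 8 for tumor against spleen in CD4. Share of all counts rose to 0.938%, 1.15% and 1.5% in spleen CD4 vehicle, CD4 LCL161 and CD8 vehicle when all antibody segments were added. The cause of these shifts was not tested.

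Signs turned in CD8 against CD4 in LCL161 libraries. In the spleen Ighg1 stood at -1.21, Ighg2b -1.04, Ighg2c -0.95, Igha -0.71, Ighm -0.58, Ighd 0.13, Igkc -0.68 and Jchain -0.91, and in the tumor Ighg1 at 2.24, Ighg2b 8.17, Ighg2c 4.65, Ighg3 1.72, Igha 4.77, Ighd 0.56, Igkc 1.56 and Jchain 7.14. Small values turned elsewhere: for LCL161, Igha in spleen CD4 (0.0858, voom) and Ighd in spleen CD8 (-0.0235, voom), and for CD8 against CD4 in the tumor, Ighg3 (0.0872, DESeq2) and Ighm (-0.00595, no scaling). With each library left out, LCL161 values crossed 0 for Igha (-0.81 to 0.18) and Ighm (-0.0897 to 0.25) in spleen CD4, Ighd in spleen CD8 (-0.00561 to 0.27), Ighg1 in tumor CD4 (-5.56 to 1.89), and Igha (-0.77 to 6.17) and Ighm (-0.36 to 0.18) in tumor CD8. So did Ighm for CD8 against CD4 in the spleen (-0.16 to 0.50), Ighg3 (-3.76 to 3.69) and Ighm (-0.37 to 1.44) in the tumor, and Ighg2b for tumor against spleen in CD4 (-7.77 to 1.07).

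In 11 of 12 pairs of groups the same-numbered libraries did not all correlate above 0.1 in their deviations, though 20 of 36 libraries correlated best with their own number, a hint from the data and not the design. In the exception, tumor against spleen in CD8 LCL161 libraries, a replicate block added after seeing the data called 8 of the 9 genes, the count without it. In the comparisons reported above, with the replicate block, 2 of the 9 genes passed for CD8 against CD4 in the spleen, 1 in the tumor, 5 for tumor against spleen in CD4 and 9 in CD8, none for LCL161, and Jchain for LCL161 in spleen CD4 turned to -0.13. Over all genes, calls ran between settings from 0 to 651 against 88 for LCL161 in spleen CD4, 961 to 7148 against 1682 in spleen CD8, 0 to 737 against 62 in tumor CD4 and 36 to 700 against 50 in tumor CD8. For CD8 against CD4 they ran from 1844 to 4485 against 2322 in the spleen and 167 to 1597 against 832 in the tumor. For tumor against spleen they ran from 899 to 4062 against 3338 in CD4 and 2439 to 7159 against 3008 in CD8.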

Other observations

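Lambda constant genes took 33.6, 29.9 and 37.8% of the light chain constant counts in spleen CD4 vehicle libraries and 26.7, 11.6 and 22.3% with LCL161. They took 6.31, 15.1 and 9.91% in spleen CD8 vehicle libraries, all below the CD4 vehicle libraries. In the tumor the share was 33.6, 50.9 and 37.7% in CD8 vehicle libraries and 51.8, 26.6 and 6.24% in CD4 vehicle libraries, the lowest being replicate 3, whose heavy chains were mostly switched. These shares were chosen after their values were seen and were not tested. Of the 11 genes tested that code for switch cytokines and B cell survival ligands, 6 were lower in the CD8 gate than in the CD4 gate of vehicle spleen (edgeR). There 11.5% of all genes passed in either direction and 5.36% were higher. Among the 6 were Il4 and Cd40lg, signals that T cells give to switching B cells.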
